A study of Bos taurus with 72 samples.

Results

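The genes described here are 6 bovine genes of milk fat synthesis, chosen by name and identifier for their known roles: SREBF1 (ENSBTAG00000007884), ACACA (ENSBTAG00000017567), FASN (ENSBTAG00000015980), SCD (ENSBTAG00000045728), LPL (ENSBTAG00000012855) and DGAT1 (ENSBTAG00000026356). Of the 6, 5 had a row among the 29550 genes measured, and 4 of these (SREBF1, ACACA, FASN and DGAT1) were among the 12121 genes whose FPKM averaged 1 or more, which entered the tests across genes. SCD was not analysed here, and LPL was too low for those tests and is described on its own. FPKM is the number of fragments assigned to a gene, scaled by its length and by a factor for the library, so that levels of different genes can be set side by side.

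Primary bovine mammary epithelial cells (BMECs) of wild-type genotype, after 6 passages, were deprived of serum overnight and then kept for 6 h in 1 of 12 media, with 6 replicates each, which gave 72 RNA-seq libraries. POS was complete DMEM-F12, NEG was DMEM-F12 lacking every essential amino acid (EAA), and the other 10 media were NEG with arginine (Arg), histidine (His), isoleucine (Ile), leucine (Leu), lysine (Lys), methionine (Met), phenylalanine (Phe), threonine (Thr), tryptophan (Trp) or valine (Val) added back alone, at the concentration of POS. The growth medium shared by all cells held insulin, prolactin, hydrocortisone, epidermal growth factor and transferrin per the labels (the paper names only insulin of these), the cells had been separated from fibroblasts by their sensitivity to trypsin, and the replicates are called biological but no animal is named for any, so p-values measure the spread between these cultures. The epithelial identity of the cells could not be checked against marker genes, because the table gives identifiers without symbols.

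Milk fat is mostly triacylglycerol, whose fatty acids are either made in the epithelial cell or taken up from blood. SREBF1 encodes a transcription factor that raises the expression of lipogenic genes. ACACA (acetyl-CoA carboxylase) makes malonyl-CoA in the committed step of fatty acid synthesis, FASN (fatty acid synthase) builds the chain from it, and SCD introduces a double bond into the finished acid. LPL (lipoprotein lipase) releases fatty acids from circulating lipoproteins for uptake, and DGAT1 joins the last fatty acid to diacylglycerol to form triacylglycerol.

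The reads recovered from the FPKM numbered between 12006111 and 18602425 per library, with a median of 15865508. They placed FASN between 6763 and 49248 reads per library, SREBF1 between 139 and 3258, ACACA between 181 and 5135, and DGAT1 between 26 (in POS_4) and 440, so that DGAT1 rested on the fewest reads of the 4. Replicate 2 of NEG, replicate 1 of Leu, replicate 4 of Arg, replicate 4 of POS and replicate 3 of Val (NEG_2, Leu_1, Arg_4, POS_4 and Val_3) stood apart from the other replicates of their media, and in the first 4 the deviation followed gene length. Among the 254 tested genes longer than 8000 bp, the median log2 deviation from the other replicates was 0.78 in Leu_1, 0.77 in Arg_4, 0.72 in POS_4 and -0.81 in NEG_2, against -0.78, -0.58, -0.44 and 0.32 among the 6563 genes of up to 2500 bp. In Val_3 these medians were -0.10 and 0.28. Leu_1, Arg_4 and POS_4 also had the fewest genes above 0, at 10495, 11838 and 13537 against 15211 or more in every other library, and the fewest reads. The paper gives Leu_1 and Arg_4 the lowest mapping rates.

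The lengths recovered for the 4 genes were 9860 bp for FASN, 8586 bp for ACACA, 4305 bp for SREBF1 and 2134 bp for DGAT1. ACACA in NEG_2 was at 0.251 times the median of the other 5 NEG libraries, and in Arg_4, POS_4 and Leu_1 at 2.58, 2.35 and 2.04 times the median of their own medium. DGAT1 went the other way, at 1.48 times the median in NEG_2 and at 0.429, 0.0937 and 0.341 times in Arg_4, POS_4 and Leu_1. FASN was at 0.427 times the median in NEG_2 and 1.95 times in Arg_4, but at 1.16 times in POS_4 and 0.967 times in Leu_1. SREBF1 was at 0.216 times in Leu_1, 0.461 times in POS_4 and 0.684 times in Arg_4. The main results that rest on these libraries are given with and without them, and the part of gene length in those results was not tested beyond the values given.

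**Figure D1:**
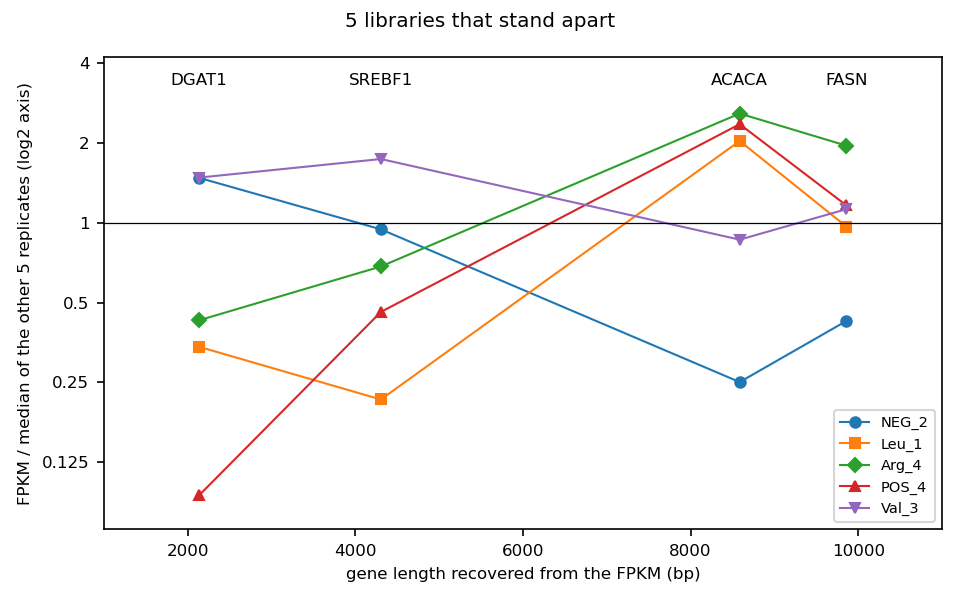
FPKM of DGAT1, SREBF1, ACACA and FASN in the 5 libraries that stood apart, divided by the median of the other 5 replicates of the same medium (log2 axis), against the gene length recovered from the FPKM in bp; lines only join the 4 points of a library. DGAT1 and ACACA lay on opposite sides of 1 in each of the 5 libraries, with ACACA at 0.251 in NEG_2 and DGAT1 at 0.0937 in POS_4.

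Per unit of length FASN was by far the most abundant of the 4, with a mean of 113 FPKM over all 72 libraries, above 94.8% of the tested genes. SREBF1 averaged 19.1 FPKM (above 66.9%), ACACA 8.68 FPKM (above 42.4%) and DGAT1 7.94 FPKM (above 40.0%). The level of FASN differed among the 12 media (limma moderated F = 14.8, adjusted p = 2.9e-12), as did that of ACACA (F = 12.0, adjusted p = 1.5e-10) and SREBF1 (F = 9.70, adjusted p = 5.4e-09). DGAT1 missed the threshold of 0.05 over all 72 libraries (F = 1.93, limma adjusted p = 0.059) and passed it without the 5 libraries that stood apart (F = 5.06, limma adjusted p = 2.2e-05). Of all 12121 genes, 87.0% passed the same F test over all libraries and 95.7% without the 5, where 77.3% of genes had a larger F than DGAT1. In bulk RNA of this kind, fewer cells of a type and less RNA per cell cannot be told apart.

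**Figure D2:**
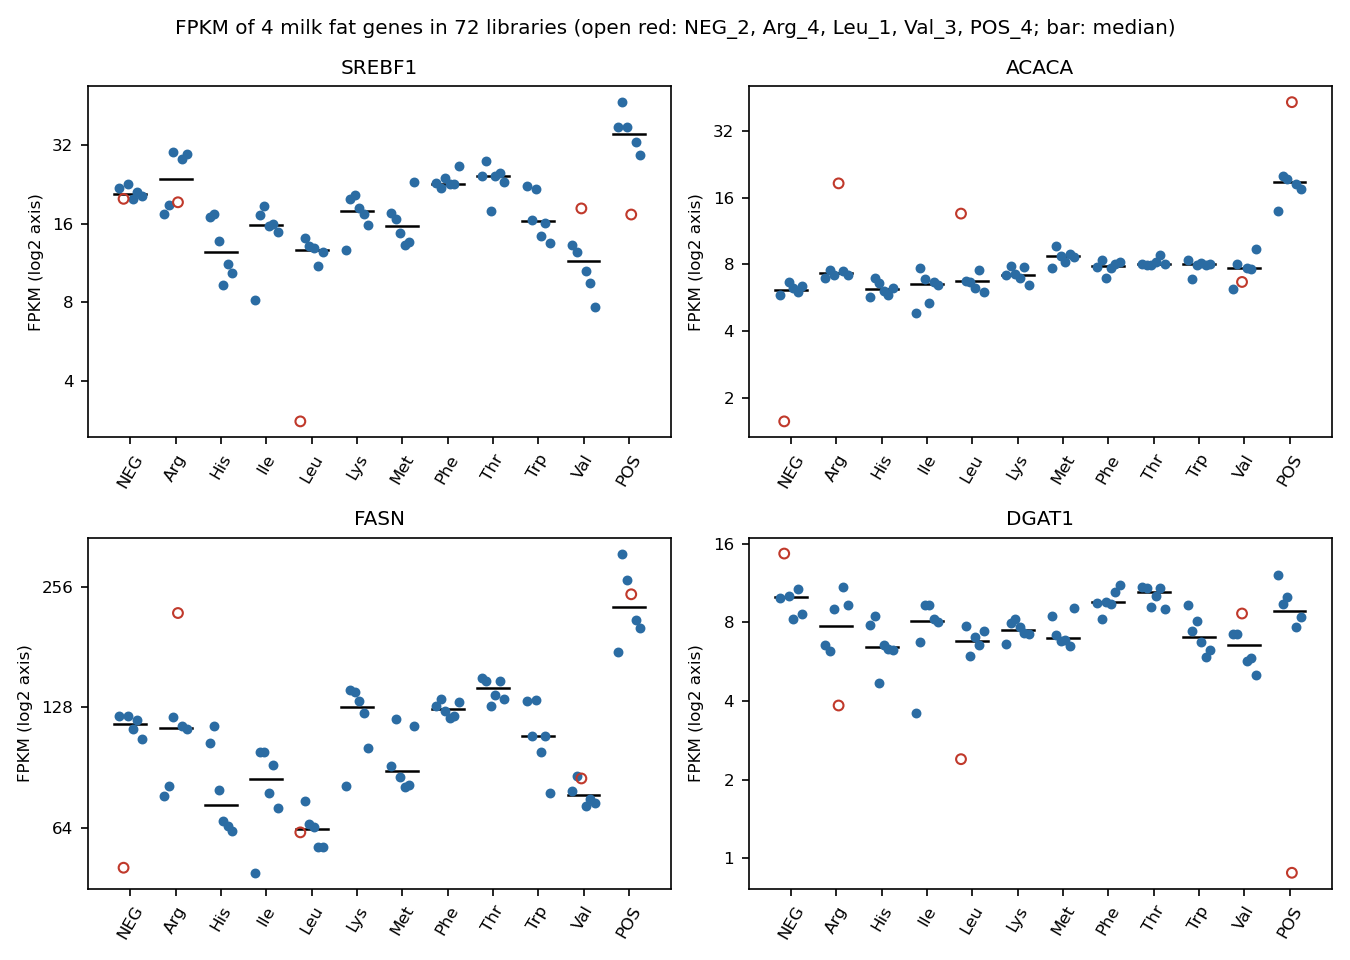
FPKM (log2 axis) of SREBF1, ACACA, FASN and DGAT1 in each of the 72 libraries, by medium; points are libraries, bars are the median of the 6 replicates, and open red points are NEG_2, Arg_4, Leu_1, Val_3 and POS_4. FASN and ACACA in POS lay above every NEG library, with medians of 228 against 116 FPKM and 18.9 against 6.10 FPKM.

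The comparison of POS with NEG shows how the genes stood with all EAA present or absent. The genes for making fatty acids were higher in complete medium: ACACA was 4.06 times and FASN 2.23 times as high in POS by mean FPKM, and their regulator SREBF1 was 1.60 times as high. DGAT1 did not pass the test. All differences below are of log2(FPKM + 1) with their standard errors, and a gene was called where the Benjamini-Hochberg adjusted p of limma over all 12121 genes was under 0.05. By that rule 3 of the 4 genes were called higher in POS, beside 14.3% of all genes called higher and 18.5% called lower.

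ACACA ranged from 1.56 to 6.65 FPKM in NEG (median 6.10) and from 13.9 to 43.2 FPKM in POS (median 18.9). All 6 POS libraries lay above all 6 NEG libraries, and the extremes were NEG_2 at the bottom and POS_4 at the top. The log2 difference was 1.83 ± 0.30 (SE, limma adjusted p = 0.00070) over all 12 libraries and 1.38 (limma adjusted p = 7.0e-07) without NEG_2 and POS_4. Only 0.297% of the tested genes had a larger rise.

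FASN ranged from 50.8 to 122 FPKM in NEG (median 116) and from 176 to 309.6 FPKM in POS (median 228). These groups did not overlap either, so that 2 of the 4 genes had POS wholly above NEG, beside 9.68% of all genes. The log2 difference was 1.18 ± 0.22 (limma adjusted p = 0.0017), and 0.97 (limma adjusted p = 0.00017) without NEG_2 and POS_4. FASN and ACACA were also the 2 genes that passed the limits the study used for differential expression (a p below 0.05 together with a log2 fold change above 1), as did 2.78% of all genes in that direction. FASN no longer passed them without NEG_2 (0.98) or after removal of the length trend (0.81).

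SREBF1 was even in NEG, from 19.9 to 22.7 FPKM (median 20.9), and ranged from 17.4 to 46.9 FPKM in POS (median 35.3). Of the 6 POS libraries 5, from 29.5 FPKM upward, lay above all of NEG, and POS_4 lay below it at 17.4 FPKM. The log2 difference was 0.60 ± 0.19 (limma adjusted p = 0.029), and 0.76 (limma adjusted p = 0.00020) without NEG_2 and POS_4. The call of SREBF1 was narrow over all 12 libraries: the limma adjusted p was between 0.053 and 0.059 without NEG_4, NEG_5, NEG_6, POS_2, POS_3 or POS_5, with differences between 0.49 and 0.60, was 0.055 without a filter on low FPKM and was 0.066 after removal of the length trend.

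DGAT1 ranged from 8.23 to 14.7 FPKM in NEG (median 10.0) and from 0.879 to 12.2 FPKM in POS (median 8.88). The low value of POS was POS_4, and the other 5 POS libraries, from 7.67 to 12.2 FPKM, overlapped the NEG libraries. The log2 difference was -0.52 ± 0.39 (limma adjusted p = 0.32), with a 95% confidence interval from -1.36 to 0.32. Without NEG_2 and POS_4 it was -0.0081 (limma adjusted p = 0.96).

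The same test was then run for each single EAA against NEG, with the same 6 NEG libraries in all 10 comparisons. Of 40 tests with a single EAA added back, 12 gave a call lower than in NEG and 1 a call higher, the latter being ACACA in Met. Leu had 3 of the 4 genes called lower (SREBF1, FASN and DGAT1), beside 29.6% of all genes. Val had SREBF1 and DGAT1 lower, beside 36.2% of all genes, and His had the same 2, beside 34.4%. Met had SREBF1 and DGAT1 lower, beside 29.9% of all genes, and ACACA higher, beside 17.7%. Ile had SREBF1 lower (25.1% of all genes), Lys had DGAT1 lower (25.8%) and Trp had DGAT1 lower (27.5%).

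In Arg, Phe and Thr 0 of the 4 genes were called by limma at an adjusted p under 0.05, and few genes of any kind were: 6.63% of all genes were called in either direction in Arg, 12.2% in Phe and 0.0330% in Thr. Under the study's own limits 0 of the 40 tests passed, although SREBF1 in Leu (-0.99) lay just inside the limit of 1 and passed it without NEG_2, NEG_4 or any 1 Leu library other than Leu_1, and also after removal of the length trend (-1.01), with a pseudocount of 0.1 (-1.08) and with voom on the recovered reads (-1.07). The limits were passed by 3.15% of all genes in Arg, 4.59% in His, 1.58% in Ile, 16.9% in Leu, 1.66% in Lys, 3.78% in Met, 0.380% in Phe, 0.512% in Thr, 3.09% in Trp and 11.8% in Val.

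These counts moved with the scaling between libraries and with NEG_2. With libraries scaled by total reads, the median log2 difference of all genes moved by 0.12 in POS, 0.10 in Arg and 0.13 in Val against NEG, and by less than 0.10 in the others. The share of higher genes among all called genes moved from 43.6% to 59.2% in POS, from 34.5% to 64.0% in Arg, from 38.6% to 51.3% in Ile, from 35.1% to 46.2% in Lys, from 35.3% to 50.4% in Trp and from 41.1% to 52.4% in Val. In Thr, where 4 genes in all were called, the split moved from 4 higher and 0 lower to 6 higher and 1 lower. Over all genes and the 10 media, 13.8% of tests were called higher and 22.1% lower. With total-read scaling 14 of the 40 tests gave a call, 4 higher and 10 lower, beside 17.8% and 18.0% over all genes. Without NEG_2, 25 of the 40 tests gave a call, 8 higher and 17 lower, and the shares over all genes rose too, to 17.9% and 26.2%. The lower calls in Leu and their directions were present under both changes.

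**Figure D3:**
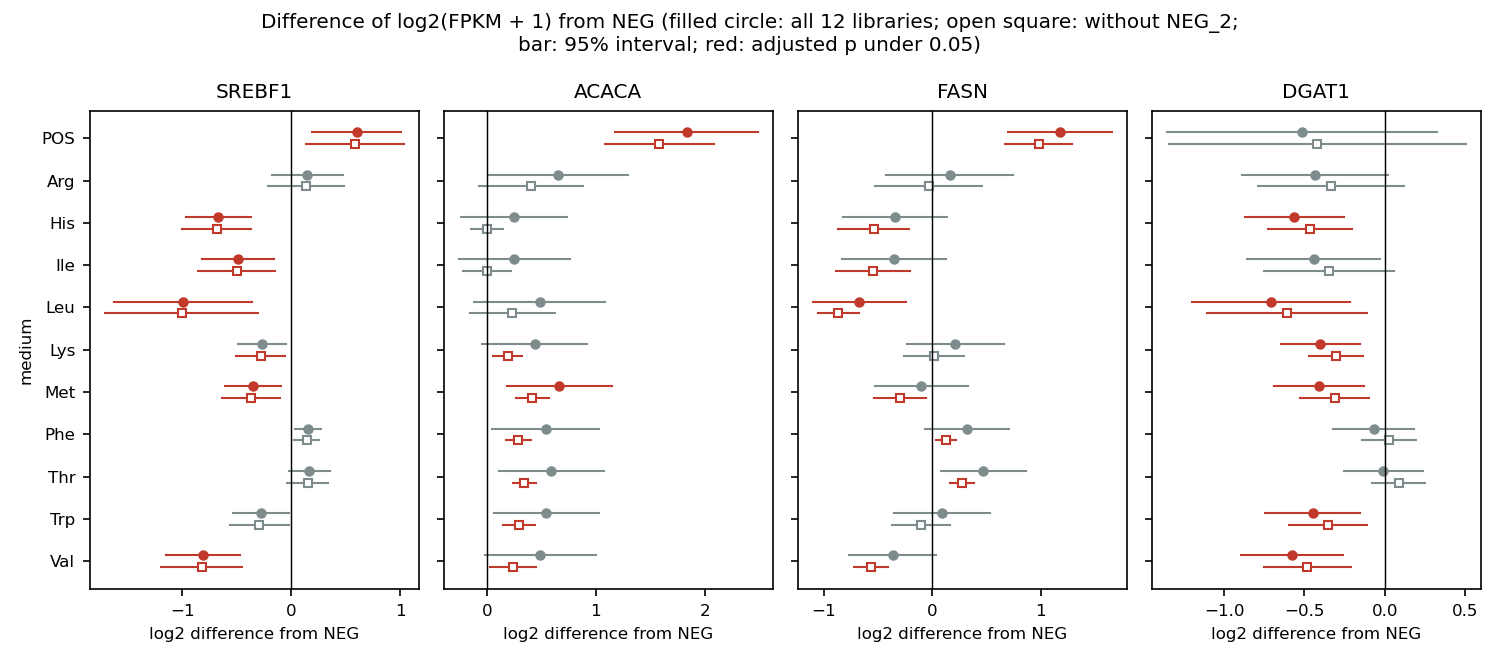
Difference of log2(FPKM + 1) from NEG for SREBF1, ACACA, FASN and DGAT1 in POS and the 10 single-EAA media, with 95% confidence intervals from limma; filled circles use all 12 libraries, open squares leave out NEG_2, and red marks an adjusted p under 0.05. Intervals of ACACA and FASN narrowed without NEG_2, and ACACA in His and Ile then sat at 0.00.

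SREBF1, the regulator, was called lower than in NEG in 5 of the 10 media, and its mean was below NEG in 7. In Leu it ranged from 2.80 to 14.1 FPKM (median 12.7), in Val from 7.68 to 18.4 FPKM (median 11.5) and in His from 9.31 to 17.5 FPKM (median 12.5), all 18 libraries being below the lowest NEG library at 19.9 FPKM. The log2 differences were -0.99 ± 0.29 in Leu (limma adjusted p = 0.015), -0.81 ± 0.16 in Val (limma adjusted p = 0.0012) and -0.67 ± 0.14 in His (limma adjusted p = 0.0013). Leu_1 was the library at 2.80 FPKM, and without Leu_1 and NEG_2 the difference was -0.70 (limma adjusted p = 1.7e-06). Val_3 was the highest Val library at 18.4 FPKM, and without it and NEG_2 the difference of Val was -0.95 (limma adjusted p = 1.3e-05), so that Val and not Leu was then the lowest medium.

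Ile ranged from 8.19 to 18.8 FPKM (median 15.9), again wholly below NEG, with a log2 difference of -0.49 ± 0.15 (limma adjusted p = 0.021). Ranges wholly below NEG were also found for 26.5% of all genes in Leu, 11.8% in Val, 19.3% in His and 16.7% in Ile. Met ranged from 13.3 to 23.1 FPKM (median 15.7), overlapping NEG, with a log2 difference of -0.35 ± 0.12 (limma adjusted p = 0.026). The calls in Ile and Met were less firm than those in Leu, Val and His: with total-read scaling the limma adjusted p was 0.063 in Ile and 0.069 in Met, in 1 fit of all 72 libraries it was 0.082 and 0.18, without a filter on low FPKM that of Ile was 0.055, and that of Met was between 0.052 and 0.064, with differences between -0.34 and -0.30, without NEG_1, NEG_3, Met_3, Met_4 or Met_5.

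In Lys SREBF1 ranged from 12.7 to 20.6 FPKM (median 17.9) and just missed the threshold (log2 difference -0.27 ± 0.10, limma adjusted p = 0.0504), and it was called lower without NEG_2 (limma adjusted p = 0.040). Trp ranged from 13.5 to 22.4 FPKM (median 16.4), with a log2 difference of -0.28 ± 0.12 (limma adjusted p = 0.078), and it was called lower with sample weights (-0.36, limma adjusted p = 0.00028), after removal of the length trend (-0.38, 0.023) and without Trp_1 (-0.35, 0.020) or Trp_3 (-0.34, 0.031). The remaining 3 media had means above NEG that were not called: Arg ranged from 17.4 to 30.3 FPKM (median 23.8), Phe from 22.1 to 26.8 FPKM (median 22.8) and Thr from 18.0 to 27.9 FPKM (median 24.5). Their log2 differences were 0.15 ± 0.15, 0.15 ± 0.06 and 0.16 ± 0.09, and Phe was called higher under total-read scaling. With sample weights all 3 were called higher, by 0.42 in Arg (limma adjusted p = 0.00026), 0.20 in Thr (0.014) and 0.13 in Phe (0.042). Over all gene tests against NEG, sample weights called 24.7% higher and 34.5% lower.

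ACACA had its lowest mean in NEG, and each of the 10 media lay above it, by log2 differences between 0.25 in His and 0.67 in Met. Met ranged from 7.67 to 9.66 FPKM (median 8.70), Thr from 7.91 to 8.79 FPKM (median 8.01), Trp from 6.87 to 8.34 FPKM (median 7.99), Phe from 6.93 to 8.41 FPKM (median 7.88) and Arg from 6.91 to 18.6 FPKM (median 7.32). Every library of these 5 media was above the highest NEG library at 6.65 FPKM, as were 8.37%, 5.58%, 7.51%, 7.67% and 5.49% of all genes in the same order of media. Lys ranged from 6.46 to 7.88 FPKM (median 7.17), Val from 6.18 to 9.36 FPKM (median 7.66), Leu from 5.97 to 13.5 FPKM (median 6.70), Ile from 4.80 to 7.69 FPKM (median 6.52) and His from 5.68 to 6.96 FPKM (median 6.15), and these 5 overlapped NEG.

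Over the 12 libraries of each comparison Met alone passed the test for ACACA (log2 difference 0.67 ± 0.23, limma adjusted p = 0.027, 1.59 times the NEG mean). Without Met_2 or Met_5 the limma adjusted p was 0.054 and 0.0504, with differences of 0.64 and 0.66, and it was 0.077 without a filter on low FPKM. NEG_2 stood out in NEG, at 1.56 FPKM against 5.84 to 6.65 FPKM in the other 5. Without NEG_2 the differences were smaller and their errors too: ACACA was then called higher in 6 media, namely Met (0.42, limma adjusted p = 0.00096), Thr (0.35, 0.00090), Trp (0.30, 0.0070), Phe (0.29, 0.0015), Val (0.24, 0.040) and Lys (0.19, 0.023). In His and Ile the difference without NEG_2 was 0.00 (limma adjusted p = 0.99 and 0.98). Arg had a difference of 0.65 over all 12 libraries, and of 0.19 without NEG_2 and Arg_4, which was called (limma adjusted p = 0.037). In 1 fit of all 72 libraries Arg, Leu, Thr, Trp and Val were called higher besides Met (limma adjusted p between 0.0075 and 0.048), and with total-read scaling Trp (0.043) and Val (0.045) were. After removal of the length trend Met alone was called, at 0.39. The differences were then 0.35 in Arg, 0.26 in Thr, 0.24 in Leu, 0.21 in Val, 0.20 in Phe, 0.19 in Trp and 0.15 in Lys. In Trp ACACA was not called without the replicate number as a block (0.55 ± 0.22, limma adjusted p = 0.063) and was called with it (limma adjusted p = 0.034). The deviations of same-numbered Trp and NEG replicates correlated at 0.10 to 0.24, above 0.1 throughout in this 1 of 21 comparisons. No label says that a number marks a shared batch.

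FASN fell in Leu, where it ranged from 57.1 to 74.8 FPKM (median 63.3) against a NEG median of 116 FPKM. The log2 difference was -0.67 ± 0.20 (limma adjusted p = 0.016), and all 6 Leu libraries were below 5 of the 6 NEG libraries, the exception being NEG_2 at 50.8 FPKM. Without NEG_2 the difference was -0.87 (limma adjusted p = 8.0e-05).

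The other branched-chain media and His were at similar levels without passing the test: FASN ranged from 72.4 to 86.1 FPKM in Val (median 77.2), from 49.3 to 98.9 FPKM in Ile (median 84.8) and from 62.8 to 115 FPKM in His (median 72.9). Their log2 differences were -0.37 ± 0.19, -0.35 ± 0.22 and -0.34 ± 0.22 (limma adjusted p = 0.10, 0.23 and 0.20). Without NEG_2 all 3 were called lower, by -0.56, -0.55 and -0.54 (limma adjusted p = 0.00074, 0.014 and 0.0075), as was Met by -0.30 (limma adjusted p = 0.037). Met ranged from 80.7 to 119 FPKM (median 88.5), and over all 12 libraries its difference was -0.10 ± 0.20 (limma adjusted p = 0.69), or -0.03 with total-read scaling. With NEG_2 kept, removal of the length trend gave lower calls in Val (-0.69, limma adjusted p = 0.00042), Ile (-0.55, 0.0049), His (-0.55, 0.0045) and Met (-0.42, 0.0086). Sample weights called the same media lower. Over all gene tests against NEG these settings called 18.5% and 34.5% lower. Total-read scaling gave no call in Val (-0.21), Ile (-0.27) or His (-0.23).

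The highest single-EAA medium for FASN was Thr, from 129 to 151 FPKM (median 143), in which every library lay above every NEG library, as did 5.58% of all genes. The log2 difference of 0.47 ± 0.18 was not called (limma adjusted p = 0.10), and it was 0.28 and called without NEG_2 (limma adjusted p = 0.0036). Phe ranged from 120.4 to 134 FPKM (median 127), and its difference of 0.32 ± 0.18 (limma adjusted p = 0.19) became 0.13 without NEG_2 (limma adjusted p = 0.037). After removal of the length trend neither was called, at 0.089 in Thr (limma adjusted p = 0.43) and -0.068 in Phe (0.49). Lys ranged from 81.2 to 141 FPKM (median 128), Trp from 78.0 to 133 FPKM (median 108) and Arg from 76.7 to 219.9 FPKM (median 114). These 3 were not called with or without NEG_2. Their log2 differences were 0.21, 0.09 and 0.16 with it, 0.02, -0.11 and -0.03 without it, and -0.11, -0.31 and -0.18 after removal of the length trend, so that the place of Trp and Arg above NEG did not hold without NEG_2. The highest Arg value was Arg_4, the next being 121 FPKM, and without NEG_2 and Arg_4 the difference of Arg was -0.22.

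DGAT1 had its highest mean in NEG (10.4 FPKM), but without NEG_2 the NEG mean was 9.52 FPKM, below Thr (10.2 FPKM) and Phe (9.72 FPKM). It was called lower in 6 of the 10 media: it ranged from 2.39 to 7.77 FPKM in Leu (median 6.78), from 5.01 to 8.65 FPKM in Val (median 6.53), from 4.69 to 8.47 FPKM in His (median 6.43), from 5.90 to 9.33 FPKM in Trp (median 7.06), from 6.51 to 9.12 FPKM in Met (median 7.0) and from 6.60 to 8.22 FPKM in Lys (median 7.50). Leu and Lys lay wholly below NEG, as did 26.5% and 16.9% of all genes in those media, and the other 4 overlapped it.

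The log2 differences of DGAT1 were -0.71 ± 0.23 in Leu (limma adjusted p = 0.023), -0.58 ± 0.15 in Val (0.0048), -0.56 ± 0.14 in His (0.0047), -0.45 ± 0.14 in Trp (0.020), -0.41 ± 0.13 in Met (0.020) and -0.40 ± 0.11 in Lys (0.016). All 6 kept an adjusted p under 0.05 without NEG_2, with differences between -0.61 in Leu and -0.30 in Lys. Without Leu_1 as well that of Leu was -0.41 (limma adjusted p = 0.0010), and without NEG_2 and Val_3 that of Val was -0.55 (0.00033), then the largest of the 6. In 1 fit of all 72 libraries, which takes in the spread of POS, the limma adjusted p was 0.14 for Trp, 0.16 for Met and 0.24 for Lys. After removal of the length trend the difference shrank to -0.29 in Trp (limma adjusted p = 0.057) and -0.25 in Met (0.064). Ile ranged from 3.59 to 9.36 FPKM (median 8.12) and Arg from 3.84 to 10.9 FPKM (median 7.77), with differences of -0.44 ± 0.19 and -0.43 ± 0.21 that were not called. Phe ranged from 8.21 to 11.1 FPKM (median 9.54) and Thr from 9.02 to 10.98 FPKM (median 10.5), with differences of -0.07 ± 0.12 and -0.01 ± 0.11 that turned to 0.03 and 0.09 without NEG_2.

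LPL, the gene for uptake from lipoproteins, was listed at 0 in 67 of the 72 libraries. It was above 0 in Ile_5 (0.0351 FPKM), Leu_3 (0.0527 FPKM), Val_1 (0.0178 FPKM) and 2 POS libraries (up to 0.0165 FPKM), or 8 reads in all if the smallest value stands for 1 read, which so few values cannot fix. On that reading a count of 0 allows up to 3 reads, or 0.0460 to 0.0727 FPKM depending on the library, and all 5 values lay within that limit. The 21 comparisons with NEG or POS held too few libraries above 0 for a two-sided exact permutation test to reach 0.05 (the lowest p was 0.45, adjusted p = 1.0), so LPL could not be compared between media.

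The last comparison asks whether any single EAA brought a gene to its level in POS, again with the 6 POS libraries shared by all 10 tests. For FASN, ACACA and SREBF1, the 3 genes higher in POS than in NEG, 0 of the 10 media reached the POS mean. Of 40 tests 27 were called lower and 0 higher: all 10 for FASN, all 10 for ACACA, 7 for SREBF1 and 0 for DGAT1. Arg, Phe and Thr had FASN and ACACA called lower, beside 4.68%, 16.0% and 17.8% of all genes. The other 7 media had SREBF1 called lower as well, beside 14.1% of all genes in His, 12.6% in Ile, 11.5% in Leu, 12.6% in Lys, 10.2% in Met, 9.83% in Trp and 14.4% in Val.

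Thr came nearest for FASN. Its highest library, at 151 FPKM, was below the lowest POS library at 176 FPKM, and its mean made up 40.1% of the log2 step from NEG to POS, a share that was 28.2% without NEG_2 and 10.99% after removal of the length trend. The log2 difference from POS was -0.71 ± 0.13 (limma adjusted p = 0.0012, 0.602 times the POS mean). At the other end Leu was at -1.85 ± 0.14 (limma adjusted p = 4.4e-06, 0.270 times the POS mean). Only Arg_4, at 219.9 FPKM, lay within the POS range, and the other 59 single-EAA libraries were below it. Apart from Arg, then, every medium lay wholly below POS for FASN, and the same held for ACACA, beside 7.70% of all genes in His, 7.56% in Ile, 7.41% in Leu, 7.99% in Lys, 6.37% in Met, 11.5% in Phe, 11.5% in Thr, 6.27% in Trp and 6.48% in Val.

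Met came nearest for ACACA, with 36.4% of the step from NEG to POS, and Arg was close to it at 35.5%. The share of Met was 26.4% without NEG_2 and 26.0% after removal of the length trend. Without the 5 libraries Met was at 30.4% and Arg at 14.2%, whereas with total-read scaling Arg was ahead, at 38.3% against 37.0%. Its highest library was at 9.66 FPKM against 13.9 FPKM for the lowest POS library, and the log2 difference was -1.17 ± 0.21 (limma adjusted p = 0.0015, 0.392 times the POS mean). His was at -1.58 ± 0.21 (limma adjusted p = 0.00014, 0.282 times the POS mean), level with Ile at -1.58, and the other 7 media lay between these and Met. Arg_4, at 18.6 FPKM, was again the only single-EAA library within the POS range. Without POS_4 the 10 differences lay between -1.38 and -0.96 and all were called.

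For SREBF1 the 7 media called lower ran from -0.87 ± 0.20 in Lys (limma adjusted p = 0.0070) to -1.59 ± 0.34 in Leu (limma adjusted p = 0.0055). Without the 5 libraries Val was furthest, at -1.70 (limma adjusted p = 3.6e-06), and Leu was at -1.45 (1.9e-06). Thr made up 27.4% of the step from NEG to POS, Phe 25.6% and Arg 24.6%, and after removal of the length trend these shares were 10.7%, 8.51% and 14.6%. Their differences from POS were -0.43, -0.44 and -0.45 (limma adjusted p = 0.10, 0.083 and 0.27), with 95% confidence intervals from -0.86 to -0.0043, from -0.85 to -0.039 and from -0.95 to 0.051, so that the data allow both a level near POS and one well below it. These 3 results moved with POS_4, the POS library lowest for SREBF1: without it they were -0.61, -0.62 and -0.62 (limma adjusted p = 0.0015, 0.00034 and 0.037), and all 10 media were then called lower, while lower calls over all genes rose from 12.4% to 21.4% of tests. With POS_4 kept in, all 3 were called lower with sample weights (limma adjusted p = 0.00016, 1.7e-05 and 0.0058), and Phe with total-read scaling (-0.52, 0.047). Over all gene tests against POS, sample weights called 32.5% lower and total-read scaling 14.2%.

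For DGAT1 the question was not put, since the difference between POS and NEG did not pass the test. Its differences from POS were between -0.19 in Leu and 0.51 in Thr, with limma adjusted p of 0.31 or more and intervals as wide as -1.13 to 0.75 in Leu. Without POS_4 DGAT1 was called lower than POS in 3 media, by -0.47 in Val (limma adjusted p = 0.018), -0.46 in His (0.018) and -0.30 in Lys (0.040), or 3 of 10 beside the 21.4% of all gene tests called lower in that setting. Leu had the lowest value, -0.60, without being called (limma adjusted p = 0.071), while Thr was at 0.10 and Phe at 0.04. Without Leu_1 as well Leu was also called lower, by -0.40 (limma adjusted p = 0.015).

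**Figure D4:**
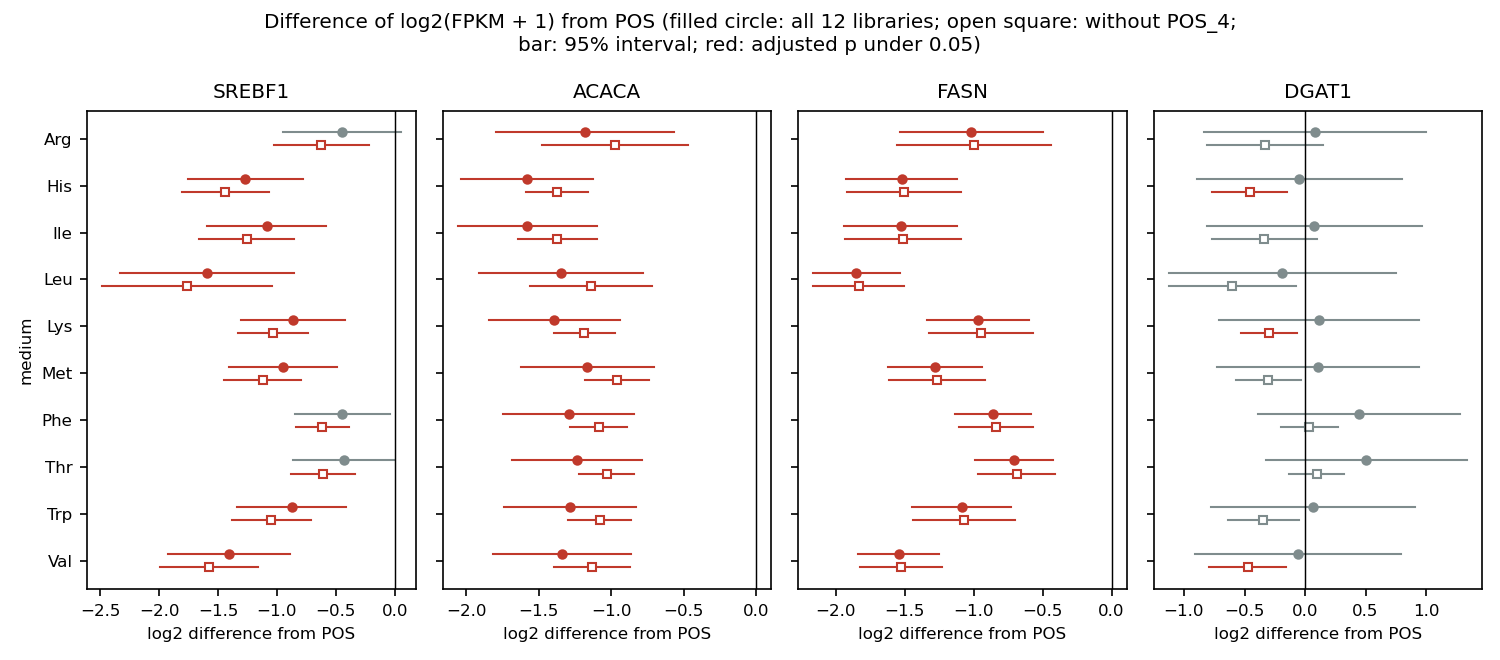
Difference of log2(FPKM + 1) from POS for SREBF1, ACACA, FASN and DGAT1 in the 10 single-EAA media, with 95% confidence intervals from limma; filled circles use all 12 libraries, open squares leave out POS_4, and red marks an adjusted p under 0.05. All ACACA and FASN intervals lay below 0, whereas the DGAT1 intervals crossed 0 with all libraries.

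The media were also ordered by mean log2(FPKM + 1). Neighbours in such an order have the closest means, so tests between them cannot show how far the media differ as a whole. FASN ran Leu, Val, Ile, His, Met, NEG, Trp, Arg, Lys, Phe, Thr and POS from low to high, and SREBF1 ran Leu, Val, His, Ile, Met, Trp, Lys, NEG, Arg, Phe, Thr and POS. ACACA began with NEG and His and ended with Arg, Met and POS, and DGAT1 began with Leu, Val and His and ended with Phe, Thr and NEG. Without the 5 libraries both SREBF1 and DGAT1 were lowest in Val. Thr and Phe then lay above NEG for DGAT1, and Arg and Trp below NEG for FASN. Of 44 neighbouring pairs in the 4 orders, 2 passed a two-sided exact permutation test after Benjamini-Hochberg adjustment: FASN in Thr below POS and ACACA in Met below POS (both exact p = 0.0022, the smallest that 924 splits allow, adjusted p = 0.048). A pair at the smallest p could not have passed alone after adjustment over 44 pairs. Before adjustment 6 pairs had an exact permutation p under 0.05. Besides the 2, these were DGAT1 in Lys below Phe (0.0043, adjusted 0.063), FASN in Leu below Val (0.0065, 0.071), FASN in Phe below Thr (0.015, 0.13) and SREBF1 in Lys below NEG (0.019, 0.14). SREBF1 in Thr below POS had an adjusted exact permutation p of 0.40.

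The orders of SREBF1 and FASN were alike. Over the 12 media means of log2(FPKM + 1) Pearson's r between them was 0.93 and Spearman's rho 0.96, and 73 of the other 12120 genes (0.602%) were closer to FASN than SREBF1 was. Without the 5 libraries r over the media means was 0.90 and 250 genes (2.06%) were closer, and over the deviations of the 72 libraries from the media means r was 0.44 and 1221 genes (10.1%) were. Over all 72 libraries r was 0.77 and rho 0.83, and over the 67 libraries r was 0.90 and rho 0.88. SREBF1 had more genes closer to it than FASN was, 183 (1.51%) over the media means and 1009 (8.33%) over all 72 libraries. FASN and ACACA were less alike (r = 0.75 and rho = 0.51 over 12 media means). In Met and Leu, for example, the mean of ACACA was above NEG and that of FASN below it. SREBF1 and DGAT1 had r = 0.58 and rho = 0.64 over the media means, and r = 0.88 and rho = 0.87 without the 5 libraries. Of the other genes, 26.6% were closer to SREBF1 than DGAT1 was, and 35.6% closer to DGAT1 than SREBF1 was. Without the 5 libraries these shares were 7.74% and 11.5%. ACACA and DGAT1 had r = -0.24 over the media means and -0.67 over the deviations of the 72 libraries from them, and 0.37 over the media means without the 5 libraries. The points of these correlations share libraries, depth and scaling, so they are given as descriptions without a test.

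**Figure D5:**
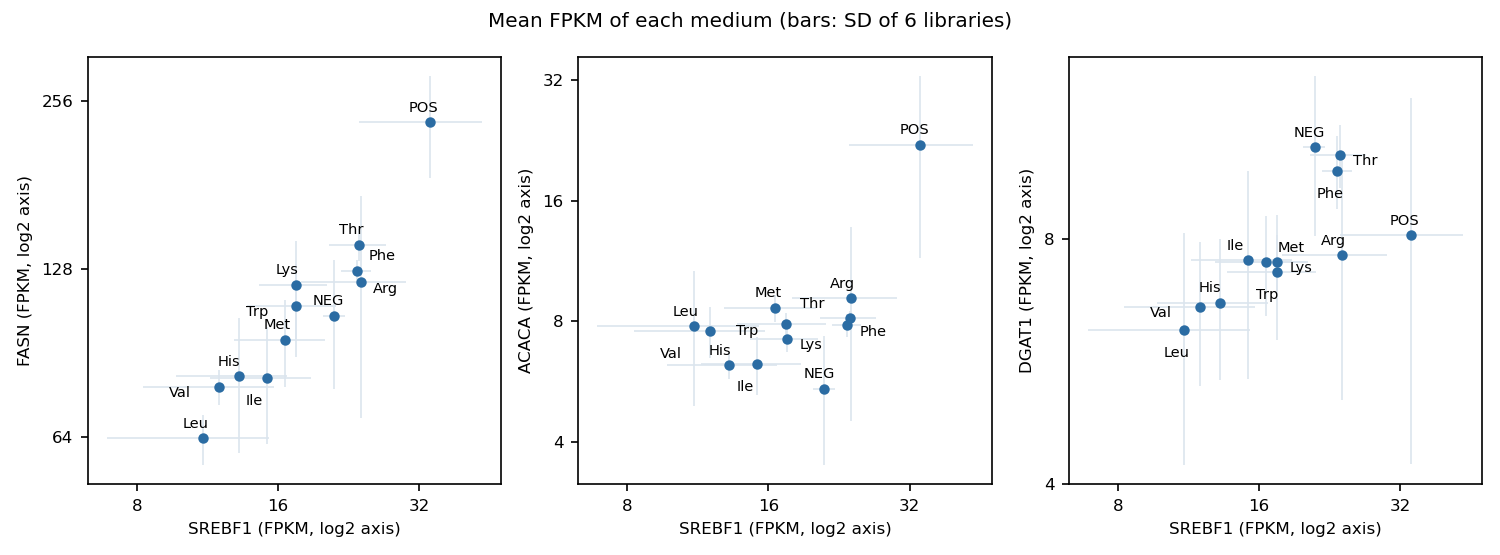
Mean FPKM of FASN, ACACA and DGAT1 (log2 axis) against mean FPKM of SREBF1 (log2 axis) in the 12 media; bars are the SD of 6 libraries. POS had the highest mean for SREBF1 (33.7 FPKM), FASN (235 FPKM) and ACACA (22.1 FPKM), whereas NEG had the highest mean for DGAT1 (10.4 FPKM, or 9.52 FPKM without NEG_2, below Thr and Phe) and the lowest for ACACA (5.43 FPKM).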

How the data were processed

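The 72 RNA-seq libraries of BMECs (12 media, 6 replicates) were grouped by GEO's labels. Per the paper, Trimmomatic, Hisat2 and StringTie served the authors for trimming, mapping and assembly before counts and FPKM were computed. The submitters' processing notes name HISAT2 2.0.5, StringTie 1.3.3b, featureCounts 1.5.0-p3 and DESeq2 1.20.0. The genome build was not given in the sources used, and the paper and the labels name different library kits, plates and growth medium supplements. The authors deposited 1 table of 29550 genes in FPKM, the unit used here.

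Whole reads were recovered from the deposited FPKM for 23683 genes, 99.5% of values coming within 0.001 of a whole number (the largest distance was 0.0041). They give depth only, without molecular identifiers, so the limit at 3 reads covers counting error alone. Reads of LPL are too few to fix its length.

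Tests used limma 3.58.1 (R 4.3.3) on log2(FPKM + 1), with the prior variance as a trend on level, for 12121 genes whose FPKM averaged 1 or more. The pseudocount understates changes of low genes. Each fit held the 12 libraries of both media, and p-values were adjusted over all genes. Permutation tests were exact (scipy 1.17.1). Scripts were tested on simulated data. The alternatives were a pseudocount of 0.1, no filter, a replicate block, 1 fit of all 72 libraries, sample weights, total-read scaling, voom on the recovered reads, the study's limits, each library left out in turn and the 5 libraries left out together. Removal of the length trend was chosen after the data were seen.

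The genes and lists were chosen with earlier results of these data known. All 6 genes are described (the rule for named genes). The files pair no identifiers with symbols, and 0 of them matched the 37063 rows of the reference table, so planned lists of lipid genes and cell type markers were not run, and no gene outside the 6 is named. The order test planned for 6 genes covered the 44 pairs of 4 genes.

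Replicates carry the numbers 1 to 6 in all media, with no statement that a number marks a shared batch. The correlation of same-numbered deviations exceeded 0.1 for every pair in 1 of 21 comparisons, Trp with NEG (0.10 to 0.24), where the blocked value is given.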

Additional observations from a re-analysis of the deposited data

Results flagged for a closer look

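In 11 of the 48 groups of 6 libraries of FASN, ACACA, SREBF1 and DGAT1 the highest or lowest value lay far from the other 5 by Dixon's test at the 95% level, where chance gives about 1 in 20, or about 2. These 11 values fell on 7 libraries. Of the long genes, FASN was low in NEG_2 (50.8 FPKM, the others from 106 FPKM) and high in Arg_4 (219.9 FPKM, the others up to 121 FPKM). ACACA was low in NEG_2 (1.56 FPKM) and high in Arg_4 (18.6 FPKM), Leu_1 (13.5 FPKM) and POS_4 (43.2 FPKM), with smaller gaps for Thr_5, high at 8.79 FPKM, and Trp_2, low at 6.87 FPKM. In Leu_1 both SREBF1 (2.80 FPKM, the others from 10.99 FPKM) and DGAT1 (2.39 FPKM, the others from 5.97 FPKM) were low, and SREBF1 was low in Ile_1 (8.19 FPKM, the others from 14.9 FPKM). LPL met the same limit by construction in Ile_5 (0.0351 FPKM), Leu_3 (0.0527 FPKM) and Val_1 (0.0178 FPKM), where the other 5 replicates were listed at 0 and the values correspond to 2, 3 and 1 reads if the smallest value stands for 1 read.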

How the results depend on the processing

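Of 756 single differences recomputed under other settings, 681 stayed on their side of the threshold, 13 lost the call, 58 gained it and 4 reversed. Of 1008 with 1 library left out, these numbers were 973, 13, 21 and 1. Called values that stayed called kept their direction, whereas the sign turned in 25 of 307 and in 23 of 470 values that were uncalled in both. The count of calls in single-EAA media against NEG was 13 of 40, 0 under the study's limits (1 without NEG_2, with a pseudocount of 0.1, with voom or after removal of the length trend, SREBF1 in Leu), 29 with sample weights and 26 without NEG_2, Leu_1, Arg_4, POS_4 and Val_3 (over all genes 35.9% of tests were called, 59.2% with sample weights and 49.6% without the 5), and it ranged from 11 (without Met_5) to 25 (without NEG_2) with 1 library left out. Against POS the count was 27, and 27 to 33 (without POS_4, where tests called over all genes rose from 26.1% to 41.3%) with 1 library left out. For POS against NEG it was 3, and 2 to 3 with 1 library left out. The F value of DGAT1 among media was 14.04 with sample weights and 5.06 without the 5 libraries, both past the threshold, as were 98.6% and 95.7% of all genes. DGAT1 against POS turned from above to below POS and was called with sample weights in Lys (-0.30), Met (-0.41) and Trp (-0.44), and in Lys without the 5 libraries (-0.30) or without POS_4 (-0.30), the lowest value with 1 library left out, the highest being 0.27. Sample weights called 32.5% of all gene tests against POS lower, beside 12.4% in the main fit. The cause of the turn was not tested. The pseudocount of 0.1 changed no call of a single difference, and voom on the recovered reads changed that of SREBF1 in Lys against NEG alone. The replicate block changed 1 call (ACACA in Trp against NEG, 0.55, limma adjusted p = 0.034) and no other; over all comparisons the correlation of same-numbered deviations ranged from -0.60 to 0.81 with a median of 0.038, and in 65 of 252 pairings of a library with a comparison the library correlated best with its own number, where 1 in 6 would be 42 and the comparisons share libraries. Depth limits LPL (above 0 in 5 libraries), and DGAT1 rested on 26 to 440 reads per library.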
